A study of Mus musculus with 4 samples.

Results

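Of the genes that desaturate fatty acids, or that make, coat and break down neutral lipid, 10 were followed in cultures of T helper 17 (Th17) cells, the CD4+ T cells that make interleukin-17. The genes were Scd1, Scd2, Fads1, Fads2, Fads3, Dgat1, Dgat2, Lpin1, Plin2 and Pnpla2, 10 of the 34745 gene rows of the deposited table. They were selected on their function and on measured values, because Scd1, Dgat1 and Lpin1 stood out in the comparison of genotypes described here. That comparison is therefore a description for these genes, with no p-value attached. The series measured RNA in 4 libraries, 2 from wild-type (WT) mice (replicates 13 and 15) and 2 from mice of genotype Setd2-CD4 cre (replicates 22 and 24). The library called WT 15 is numbered 15 in its title and 14 in its cell type label, and the title was followed. All mice were C57BL/6, and naive CD4+ T cells from the spleen had spent 3 days under Th17 polarising conditions. Setd2 encodes the enzyme that trimethylates lysine 36 of histone H3, and Cd4 sequences commonly drive Cre in T cell precursors, so that CD8 T cells carry the change too. The altered exons, the Cre status of the WT mice, their age and any pooling of animals are not stated in these sources.

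Cells store surplus fatty acids as triglyceride in lipid droplets. Stearoyl-CoA desaturases (Scd genes) place the first double bond in a saturated chain, and the Fads enzymes add further double bonds. Lipins remove phosphate from phosphatidate to give diacylglycerol, and Dgat1 and Dgat2, which are unrelated in sequence, add the last acyl chain. Plin2 coats the droplet, and Pnpla2, the adipose triglyceride lipase, starts its breakdown. In activated T cells, membrane growth draws on the same fatty acids.

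The libraries held 11007343 to 12518415 counts over 15882 to 16307 genes. Setd2 itself measured 183 and 176 CPM (counts per 1000000, scaled by TMM factors) in the WT libraries, against 144 and 153 CPM in those of Setd2-CD4 cre. Its log2 fold change was -0.28 (SE 0.10) with an adjusted p of 0.0748 by edgeR. Lpcat4, a lysophospholipid acyltransferase gene, went from 41.3 and 39.5 CPM to 21.02 and 18.96 CPM (-1.01, SE 0.14, edgeR adjusted p = 0.0026). A Setd2 sum over the whole gene does not test whether some exons were removed. T cell identity was present in every library, with Cd4 at 939 to 1138 CPM and Cd3e at 187 to 294 CPM. Of 7 T cell markers, 1 (Cd28) rose and 5 fell. The 14 B cell markers summed to 271 and 230 CPM in WT and to 837 and 572 CPM in Setd2-CD4 cre, and 11 of them rose and none fell. The 8 dendritic cell markers summed to 53.8 and 54.8 CPM against 108 and 96.4 CPM, and 3 of 5 tested rose, Flt3, Batf3 and H2-Ab1. H2-Ab1 was the largest in every library, at 20.26 and 20.99 CPM in WT against 54.0 and 37.6 CPM. Itgax was lower without passing, at 9.29 and 7.15 CPM against 5.64 and 5.50 CPM (edgeR adjusted p = 0.125). Clec9a and Xcr1 had counts in WT 13 only (8 and 1), and Siglech stood at 0 in all libraries. The marker sum therefore does not show whether dendritic cells were more frequent. The 8 CD8 T and NK cell markers summed to 92.8 and 113 CPM against 226 and 122 CPM, and 2 of 6 tested rose, Klrd1 and Klre1. Cd8a and Cd8b1 stood at 75.2 and 51.9 CPM in replicate 22 but at 24.8 and 20.4 CPM in replicate 24, and did not pass (edgeR adjusted p = 0.833 and 0.312). Nkg7 and Eomes did not pass either. Among all tested genes, 16.2% were higher and 14.5% lower at an edgeR adjusted p under 0.05. The 7 macrophage and monocyte markers found in the table summed to 21.9 to 26.1 CPM in all libraries, and none of 3 tested passed. Cd68 was the largest in every library, at 16.1 and 17.1 CPM in WT against 21.02 and 18.4 CPM. Lyz2 was lower without passing, at 4.80 and 7.07 CPM against 0.389 and 3.85 CPM (edgeR adjusted p = 0.247). Mertk had 10 and 5 counts against 1 and 1, and Adgre1 had no count in either Setd2-CD4 cre library. Csf1r and Cd14 overlapped between the genotypes. This sum therefore does not show whether these cells were equally frequent. In bulk RNA, fewer cells of a type and less RNA per cell cannot be told apart. The part of these other cells in the values below was not tested.

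Scd1 and Scd2 are near-copies, so their shared sequence is shown first: it decides which reads can tell them apart. The coding sequences, 1065 and 1074 bases in GENCODE M21, are identical at 90.7% of aligned positions. The stretch below covers bases 463 to 729 of the Scd1 coding sequence and the aligned stretch of Scd2 (both on chromosome 19), written 5′ to 3′ in the sense of the mRNA. Capitals mark the bases that differ.
Scd1: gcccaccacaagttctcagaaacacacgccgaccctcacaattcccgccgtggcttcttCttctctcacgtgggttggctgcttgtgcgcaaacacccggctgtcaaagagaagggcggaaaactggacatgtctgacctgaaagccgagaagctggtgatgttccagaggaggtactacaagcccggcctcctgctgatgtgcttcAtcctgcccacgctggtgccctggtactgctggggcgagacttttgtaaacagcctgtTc
Scd2: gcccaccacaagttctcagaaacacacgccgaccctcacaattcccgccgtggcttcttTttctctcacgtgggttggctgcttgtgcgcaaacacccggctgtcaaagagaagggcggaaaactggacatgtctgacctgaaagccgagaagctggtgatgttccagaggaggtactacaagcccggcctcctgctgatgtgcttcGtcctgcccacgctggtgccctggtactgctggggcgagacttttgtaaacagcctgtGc
Only 3 of the 267 bases differ here, and the longest identical run is 147 bases. Outside such stretches the transcripts diverge: 145 of the 4783 words of 50 bases in the Scd1 transcript (3.03%) occur in that of Scd2. The copies Scd3 and Scd4 hold 167 and 84 of these words, and their coding sequences match that of Scd1 at 91.5 and 86.0% of aligned positions. Scd3 is thus closer to Scd1 than Scd2 is. The read length and the handling of reads that match more than 1 gene are not stated in these sources. Fads1 shared no word of 50 bases with Fads2 or Fads3, and Dgat1 none with Dgat2. Fads2 shared 5 of its 3101 words with Fads3.

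In Setd2-CD4 cre cultures Scd1 was 4.56-fold higher, Dgat1 3.32-fold, Lpin1 2.24-fold, Plin2 1.81-fold, Pnpla2 1.61-fold and Fads2 1.52-fold higher, while Fads1 was 1.55-fold lower. Scd2 and Dgat2 had log2 fold changes near 0, and Fads3 was close to the detection limit. As a description only, 6 of the 10 lay past the call rule used for all genes (an adjusted p of 0.05 in the quasi-likelihood test of edgeR) as higher and 1 as lower. Of all 12927 genes tested, 30.7% were called, 16.2% higher and 14.5% lower. Nothing is read from the share among the 10, because the contrast helped to choose them. With library totals in place of TMM factors the called genes were 1409 higher and 2879 lower, against 2094 and 1880, and the median of all tested genes moved from -0.01 to -0.16.

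**Figure D1:**
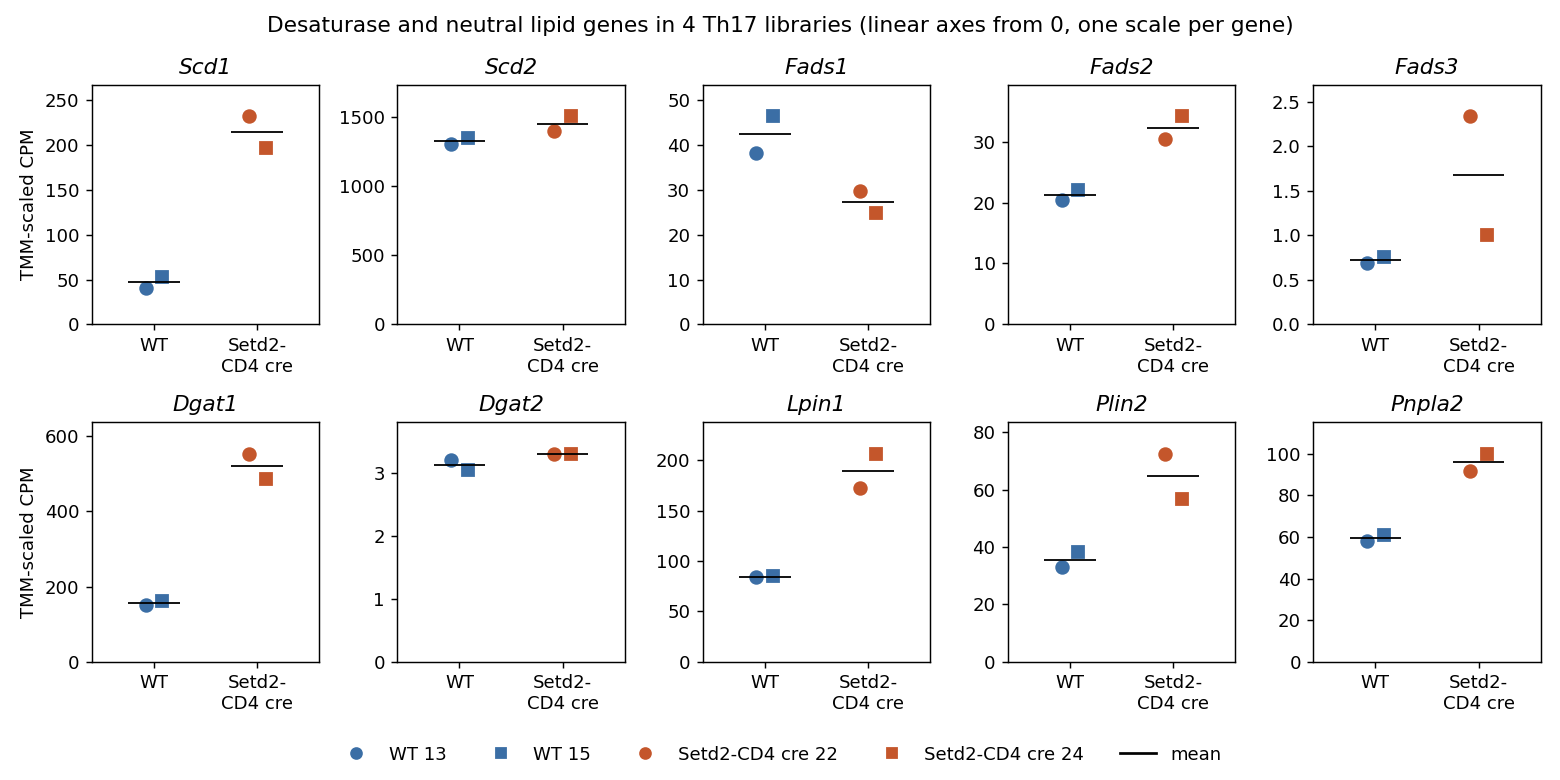
TMM-scaled CPM of each gene (vertical axes, linear from 0, 1 scale per gene) in the WT libraries (blue) and the Setd2-CD4 cre libraries (orange), with circles for replicates 13 and 22, squares for 15 and 24, and black lines for group means. Scd1 and Dgat1 show the widest separation, Fads1 is the gene that stands lower, and Scd2 and Dgat2 lie nearly level.

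Scd1 (ENSMUSG00000037071, chromosome 19, 44394451 to 44407709 in the deposited table, minus strand) measured 40.7 and 53.4 CPM in the WT libraries, against 232 and 197 CPM in those of Setd2-CD4 cre. Its WT libraries were the furthest apart of the 10 genes, by 0.39 on the log2 scale, and the genotypes were still separated by 1.88. Group means, with the SD over 2 libraries, came to 47.03 ± 8.99 and 215 ± 24.9 CPM, and the log2 fold change to 2.19 (SE 0.16). Among tested genes this was the 201st largest rise.

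Scd2 (ENSMUSG00000025203, chromosome 19, 44293676 to 44306864, plus strand) was the most abundant of the 10 in counts, with 14342 to 17759 per library. It reached 1306 (WT 13) and 1351 CPM (WT 15), and 1396 and 1505 CPM in replicates 22 and 24, a log2 fold change of 0.13 (SE 0.13). The gap between the genotypes, 0.05 on the log2 scale, was smaller than the gap between the Setd2-CD4 cre libraries, 0.11. Its direction followed the scaling, with -0.02 under library totals and -0.03 on log2(FPKM + 1).

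The 2 genes lie in 1 cluster with Scd3 and Scd4 on chromosome 19. Scd3 had no count in any library, which allows up to 3 counts per library. Scd4 rested on 25 and 14 WT counts against 13 and 11 counts for Setd2-CD4 cre (log2 fold change -0.39, SE 0.51, edgeR adjusted p = 0.587). Per length, from the deposited FPKM (fragments per kilobase and 1000000 mapped), Scd1 made up 3.39 and 4.27% of the sum of Scd1 and Scd2 in WT, against 15.8 and 12.9% for Setd2-CD4 cre. Scd2 thus remained the larger part in every library, by 22.4 to 28.5 times in WT and by 5.33 to 6.78 times in Setd2-CD4 cre.

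Fads1, the desaturase that completes arachidonic acid (ENSMUSG00000010663, chromosome 19, 10182888 to 10196870, plus strand), gave WT values of 38.3 and 46.5 CPM, with 29.8 and 24.9 CPM for Setd2-CD4 cre. Both Setd2-CD4 cre values lay below both WT values. This put the means, with the SD over 2 libraries, at 42.4 ± 5.77 and 27.3 ± 3.44 CPM, and the log2 fold change at -0.63 (SE 0.16). The call was lost without WT 15, where the log2 fold change was -0.49.

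Fads2, which acts before Fads1 on the same fatty acids (ENSMUSG00000024665, chromosome 19, 10064164 to 10101503, minus strand), measured 20.5 and 22.1 CPM in the WT libraries, against 30.4 and 34.2 CPM in those of Setd2-CD4 cre. The genotypes did not overlap, and the direction was opposite to that of Fads1. Group means, with the SD over 2 libraries, came to 21.3 ± 1.11 and 32.3 ± 2.69 CPM, and the log2 fold change to 0.60 (SE 0.15). The call was lost without WT 13, without WT 15 and under library totals (0.45). Fads1 made up 44.9 and 47.9% of the summed FPKM of the pair in WT, against 30.0 and 24.1% for Setd2-CD4 cre. Over the longest coding transcripts in GENCODE M21 its share was 63.0 and 65.7% in WT, against 47.2 and 39.9% for Setd2-CD4 cre. Which gene of the pair was the larger in WT thus depends on the length used.

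Fads3, a family member reported to act on sphingoid bases (ENSMUSG00000024664, chromosome 19, 10041548 to 10059671, plus strand), rested on 9 and 10 WT counts against 24 and 11 counts for Setd2-CD4 cre. Replicate 22 alone stood apart. The log2 fold change of 1.19 (SE 0.57) became 0.48 without that replicate and 1.68 without replicate 24, the fit in which the gene was called.

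**Figure D2:**
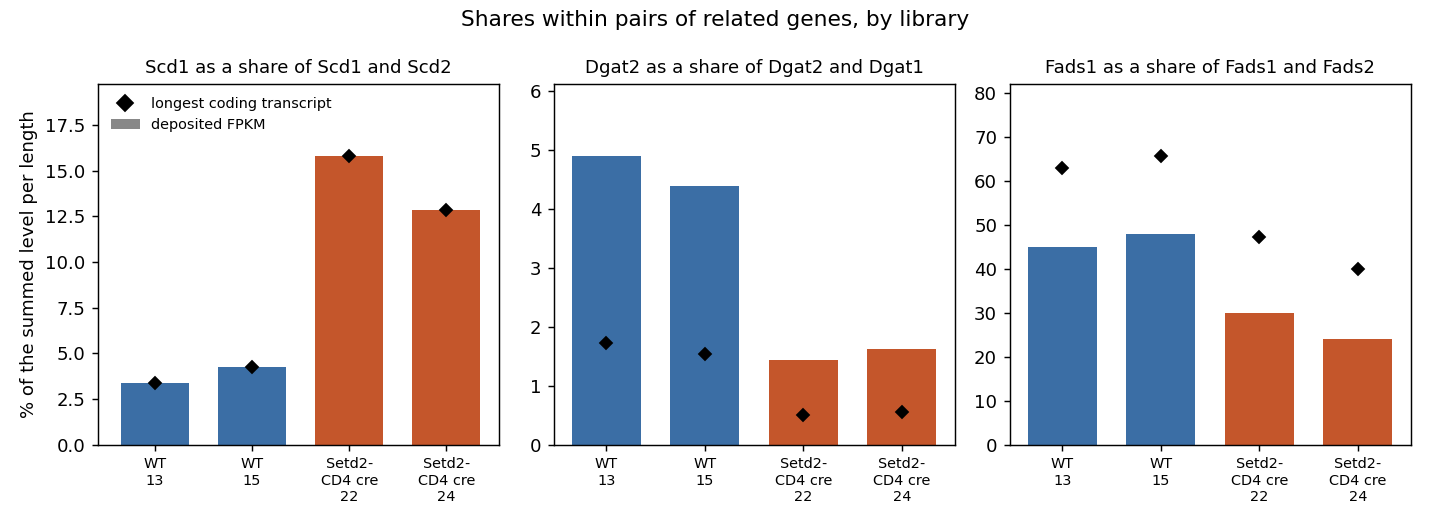
Share of 1 gene in the summed level per length of a pair (vertical axes, %, from 0), by library, with bars from the deposited FPKM and black diamonds from the same counts over the longest coding transcript in GENCODE M21. Scd1 takes 3.39 to 4.27% of its pair in WT and 12.9 to 15.8% in Setd2-CD4 cre, while the shares of Dgat2 and of Fads1 are lower in Setd2-CD4 cre under both lengths.

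Dgat1 (ENSMUSG00000022555, chromosome 15, 76502015 to 76511951, minus strand) reached 151 (WT 13) and 162 CPM (WT 15), and 553 and 486 CPM in replicates 22 and 24. Its lowest Setd2-CD4 cre library lay 1.59 above its highest WT library on the log2 scale, and libraries of 1 genotype were at most 0.19 apart. This put the means, with the SD over 2 libraries, at 157 ± 7.38 and 520 ± 47.7 CPM, and the log2 fold change at 1.73 (SE 0.12). Over the alternative fits the log2 fold change ran from 1.55 to 1.82.

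Dgat2 (ENSMUSG00000030747, chromosome 7, 99153663 to 99182713, minus strand) had 34 to 42 counts per library. It gave WT values of 3.20 and 3.04 CPM, with 3.31 and 3.30 CPM for Setd2-CD4 cre, a log2 fold change of 0.08 (SE 0.32). The sign changed with the scaling, to -0.07 under library totals. In FPKM, Dgat1 exceeded Dgat2 by 19.4 and 21.8 times in WT and by 68.6 and 60.4 times in Setd2-CD4 cre. Over the longest coding transcripts in GENCODE M21 it did so by 56.7 and 63.7 times in WT and by 200 and 177 times in Setd2-CD4 cre. The size of the ratio depends on the gene length used, which is not resolved for Dgat1.

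Lpin1 (ENSMUSG00000020593, chromosome 12, 16535669 to 16589770, minus strand) measured 83.9 and 85.2 CPM in the WT libraries, against 172 and 207 CPM in those of Setd2-CD4 cre. The WT libraries differed by 0.02 on the log2 scale and the Setd2-CD4 cre libraries by 0.26, against a gap of 1.01 between the genotypes. Group means, with the SD over 2 libraries, came to 84.5 ± 0.938 and 189 ± 24.4 CPM, and the log2 fold change to 1.16 (SE 0.12).

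Plin2 (ENSMUSG00000028494, chromosome 4, 86648386 to 86670060, minus strand) reached 33.1 (WT 13) and 38.1 CPM (WT 15), and 72.6 and 56.7 CPM in replicates 22 and 24. The values did not overlap, and replicate 22 was the higher of the Setd2-CD4 cre pair. This put the means, with the SD over 2 libraries, at 35.6 ± 3.52 and 64.6 ± 11.2 CPM, and the log2 fold change at 0.86 (SE 0.16).

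Pnpla2 (ENSMUSG00000025509, chromosome 7, 141455198 to 141460743, plus strand) gave WT values of 58.04 and 61.0 CPM, with 91.8 and 100.1 CPM for Setd2-CD4 cre. All values of 1 genotype lay apart from those of the other by 0.59 on the log2 scale. Group means, with the SD over 2 libraries, came to 59.5 ± 2.09 and 95.9 ± 5.90 CPM, and the log2 fold change to 0.69 (SE 0.11). The call was lost without WT 13.

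In TMM-scaled CPM the libraries of the genotypes did not overlap for any of the 10 genes, 9 higher and 1 lower. Among all tested genes 70.7% did not overlap, and nothing is read from the share here either. In the deposited FPKM 7 genes were separated upward and 2, Fads1 and Dgat2, downward, and Scd2 overlapped. The median log2 fold change of the 10 genes was 0.77, beside -0.01 over all tested genes. Nothing is read from this median, because the same contrast helped to choose the genes. Within Setd2-CD4 cre, 6 of the genes were higher in replicate 22 (Scd1, Fads1, Fads3, Dgat1, Dgat2 and Plin2) and 4 in replicate 24 (Scd2, Fads2, Lpin1 and Pnpla2). Dgat2 differed by only 0.005 on the log2 scale between these replicates. In WT, 9 of the genes were higher in WT 15 and 1 in WT 13. The B cell marker sum was higher in replicate 22 (837 CPM) than in replicate 24 (572 CPM), and lower in WT 15 (230 CPM) than in WT 13 (271 CPM). Whether it bears on the order of the 10 genes was not tested.

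**Figure D3:**
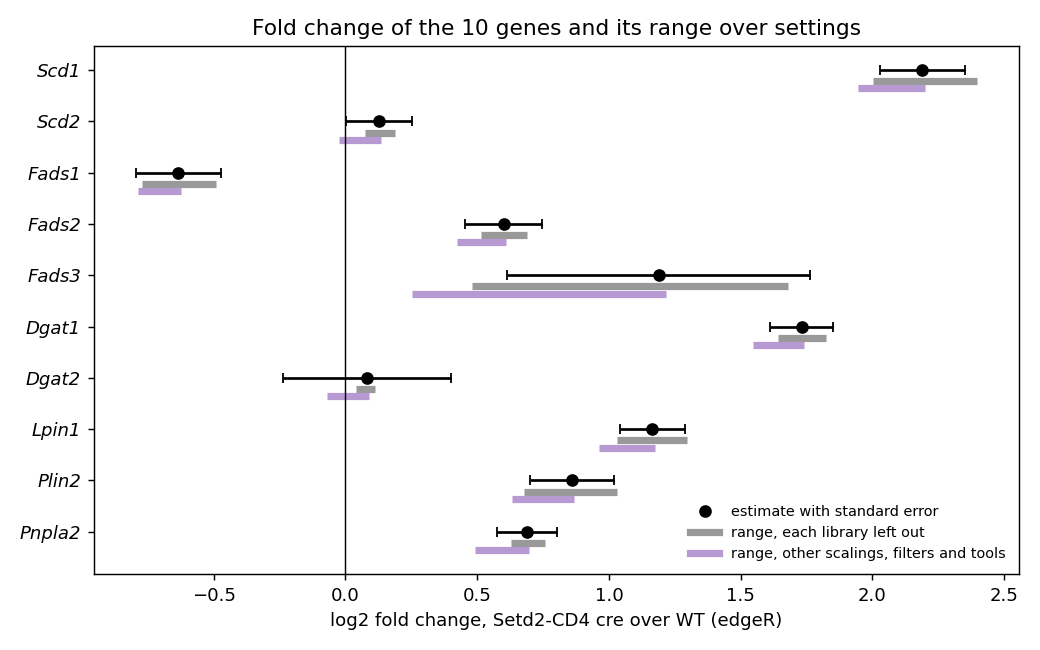
Log2 fold change of each gene, Setd2-CD4 cre over WT (horizontal axis), as the edgeR estimate with its standard error (black), with the range when each library was left out (grey) and over the other scalings, filters and tools (purple). Scd1, Dgat1 and Lpin1 stay at 0.96 or above in every setting, Fads1 stays below 0, and the ranges of Scd2 and Dgat2 reach both sides of 0.

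Levels of different genes are compared per length. By the deposited FPKM the WT order was Scd2 (257 ± 7.87), Dgat1 (30.06 ± 1.62), Lpin1 (15.6 ± 0.280), Fads2 (14.9 ± 0.878), Fads1 (12.9 ± 1.85), Scd1 (10.3 ± 2.03), Pnpla2 (8.98 ± 0.378), Plin2 (7.17 ± 0.757), Dgat2 (1.46 ± 0.0418) and Fads3 (0.233 ± 0.0187), each as mean ± SD over 2 libraries. Scd2 ranked 102nd of the 17192 genes with a WT value above 0. The WT ranges of Lpin1 and Fads2, of Fads1 and Scd1 and of Scd1 and Pnpla2 overlapped, so their order is not resolved. In Setd2-CD4 cre, Scd1 (42.04 ± 3.93) followed Scd2 (253 ± 19.2) and Dgat1 (89.7 ± 6.19).

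The order depends on the length behind each FPKM value. Those lengths, recovered from count, library total and FPKM, were 5491 bases for Dgat1, 5239 for Plin2, 6988 for Pnpla2 and 1508 for Fads2. The longest coding transcripts of these genes in GENCODE M21 have 1888, 1888, 2625 and 3150 bases. For Scd1 (4836 and 4832 bases), Scd2 (5453 and 5455), Fads1 (3456 and 3460) and Dgat2 (2251 and 2262) they were close. Lpin1 (5725 and 5581) and Fads3 (3269 and 3687) lay between these cases. The Lpin1 length behind the FPKM was also longer than any annotated Lpin1 transcript. Over the GENCODE lengths Dgat1 stood at 87.4 ± 4.72, Pnpla2 at 23.9 ± 1.01 and Plin2 at 19.9 ± 2.10 counts per kilobase and 1000000 counts in WT, and Fads2 at 7.12 ± 0.420. Pnpla2 and Plin2 then stood above Lpin1. In Setd2-CD4 cre, Dgat1 at 261 ± 17.99 then overlapped with Scd2 at 252 ± 19.2 (mean ± SD, n = 2). For Dgat1, Plin2 and Pnpla2 the lengths behind the FPKM exceeded the longest GENCODE M21 transcript of any kind (1888, 1888 and 2625 bases). Which length suits their counts is not known, so these changes of order are not resolved. A length that is the same in all libraries cancels in the fold change of a gene. Whether the counts of Dgat1, Plin2 and Pnpla2 include sequence outside their annotated transcripts was not tested.

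**Figure D4:**
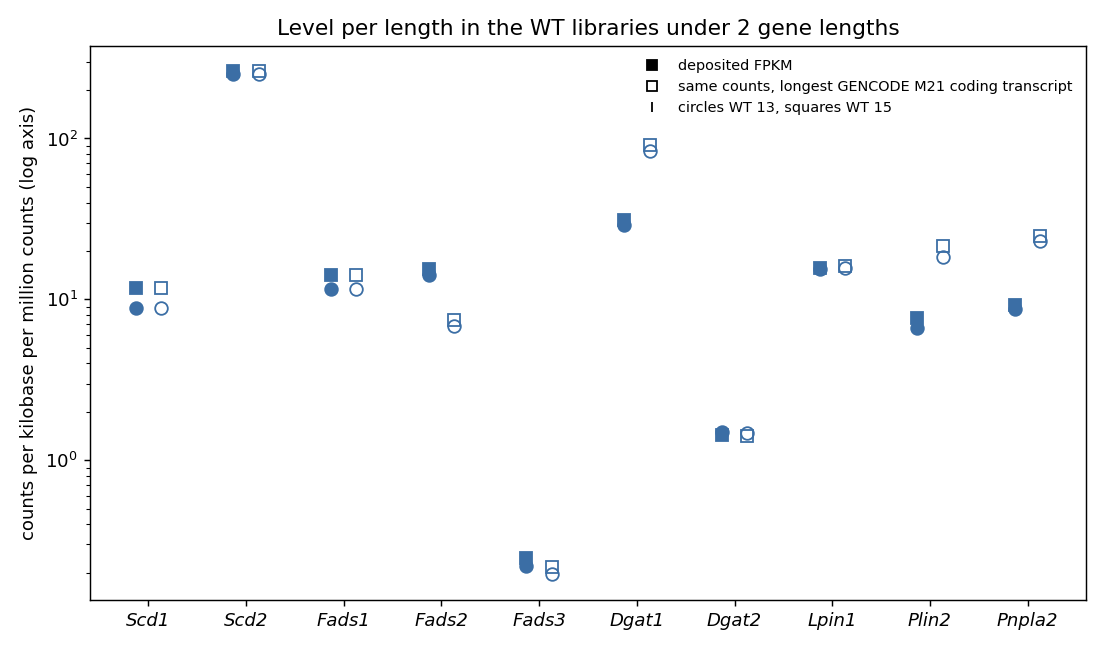
Counts per kilobase and 1000000 counts (log axis) of each gene in WT 13 (circles) and WT 15 (squares), from the deposited FPKM (filled) and from the same counts over the longest GENCODE M21 coding transcript (open). Scd2 is highest under both lengths, and Dgat1, Plin2, Pnpla2 and Fads2 move with the length.

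The RefSeq promoter table (GRCm38.p6, 250 bases before to 50 after a gene's start) held 5 of the 10 genes: Fads2, Fads3, Lpin1, Plin2 and Pnpla2. The 4 of these that stood higher in Setd2-CD4 cre and past the call rule are printed to show the sequence at their starts, each in the sense of its gene, 5′ to 3′. They lie at chr19:10101454-10101753 (minus strand), chr12:16610917-16611216 (minus), chr4:86670010-86670309 (minus) and chr7:141454938-141455237 (plus). Capitals mark the motifs found.
Fads2: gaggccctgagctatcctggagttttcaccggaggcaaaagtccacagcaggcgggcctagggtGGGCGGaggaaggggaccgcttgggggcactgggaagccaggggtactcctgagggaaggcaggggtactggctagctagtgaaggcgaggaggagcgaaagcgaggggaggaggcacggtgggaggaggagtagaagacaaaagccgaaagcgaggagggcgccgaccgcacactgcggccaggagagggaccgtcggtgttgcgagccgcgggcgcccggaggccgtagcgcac
Lpin1: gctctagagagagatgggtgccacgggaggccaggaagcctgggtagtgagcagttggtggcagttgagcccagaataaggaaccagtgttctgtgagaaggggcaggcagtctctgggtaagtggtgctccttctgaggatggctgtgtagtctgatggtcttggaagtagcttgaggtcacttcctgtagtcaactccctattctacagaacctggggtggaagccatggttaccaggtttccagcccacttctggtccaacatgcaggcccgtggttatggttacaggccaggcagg
Plin2: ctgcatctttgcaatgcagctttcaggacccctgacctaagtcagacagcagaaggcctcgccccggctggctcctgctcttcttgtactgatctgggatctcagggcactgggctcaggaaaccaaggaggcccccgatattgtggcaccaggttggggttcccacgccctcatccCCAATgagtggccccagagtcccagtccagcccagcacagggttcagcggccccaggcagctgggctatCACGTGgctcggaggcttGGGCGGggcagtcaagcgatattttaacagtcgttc
Pnpla2: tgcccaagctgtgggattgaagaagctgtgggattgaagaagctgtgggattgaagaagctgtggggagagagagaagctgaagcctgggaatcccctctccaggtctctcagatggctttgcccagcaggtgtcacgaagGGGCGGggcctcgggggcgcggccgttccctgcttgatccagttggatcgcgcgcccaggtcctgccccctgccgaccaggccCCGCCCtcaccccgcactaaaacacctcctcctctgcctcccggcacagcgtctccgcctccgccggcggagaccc
In all, 5 motifs were searched on both strands, with no overlap between those found. The Sp1 box GGGCGG occurred once in Fads2 and Plin2 and at 2 places in Pnpla2, and 35.7% of all 32851 promoters in the table hold it. The NF-Y box CCAAT (37.4% of promoters) and the palindromic E-box CACGTG (7.15%) occurred in Plin2, the E-box starting 4 bases before the gene's start. The Fads3 window, not printed, held the most motifs of the 5 windows, 2 NF-Y boxes and 2 Sp1 boxes. Neither the sterol response element TCACNCCAC (1.24% of promoters) nor the PPAR direct repeat AGGTCANAGGTCA (0.0396%) is among the letters of these windows, and the Lpin1 window held none of the 5. The Lpin1 window lies beyond the upper end of the span that the deposited table gives for the gene.

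Of 21 other tested genes within 50000 bases of the 10, a distance chosen after the values were seen, 2 rose, 3 fell and 16 did not pass, beside 16.2% higher and 14.5% lower among all tested genes. Fen1, a flap endonuclease gene of DNA replication that lies 2255 bases from Fads1 on the other strand, fell (log2 fold change -1.37, SE 0.17, edgeR adjusted p = 0.00183). Tmem258, the next gene, stood at -0.02 (SE 0.16, edgeR adjusted p = 0.928). Hsf1, the heat shock factor gene, lies 102 bases from Dgat1 on the opposite strand and stood at 0.36 (SE 0.13, edgeR adjusted p = 0.0650). Whether strand was used in counting is not stated in these sources.

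Other genes of fatty acid and neutral lipid metabolism were read from 10 lists. The counts per list given below stand beside 16.2% higher and 14.5% lower among all tested genes. No set test was run, so nothing is read as particular to a list. Of 97 tested, 14 rose and 15 fell, 29.9% in all, which is close to the 30.7% of all genes. Their median log2 fold change was -0.13, beside -0.01. Without WT 13 only 4 rose and 3 fell, and without WT 15 only 3 and 4, while 21 and 24 did so without Setd2-CD4 cre 24.

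**Figure D5:**
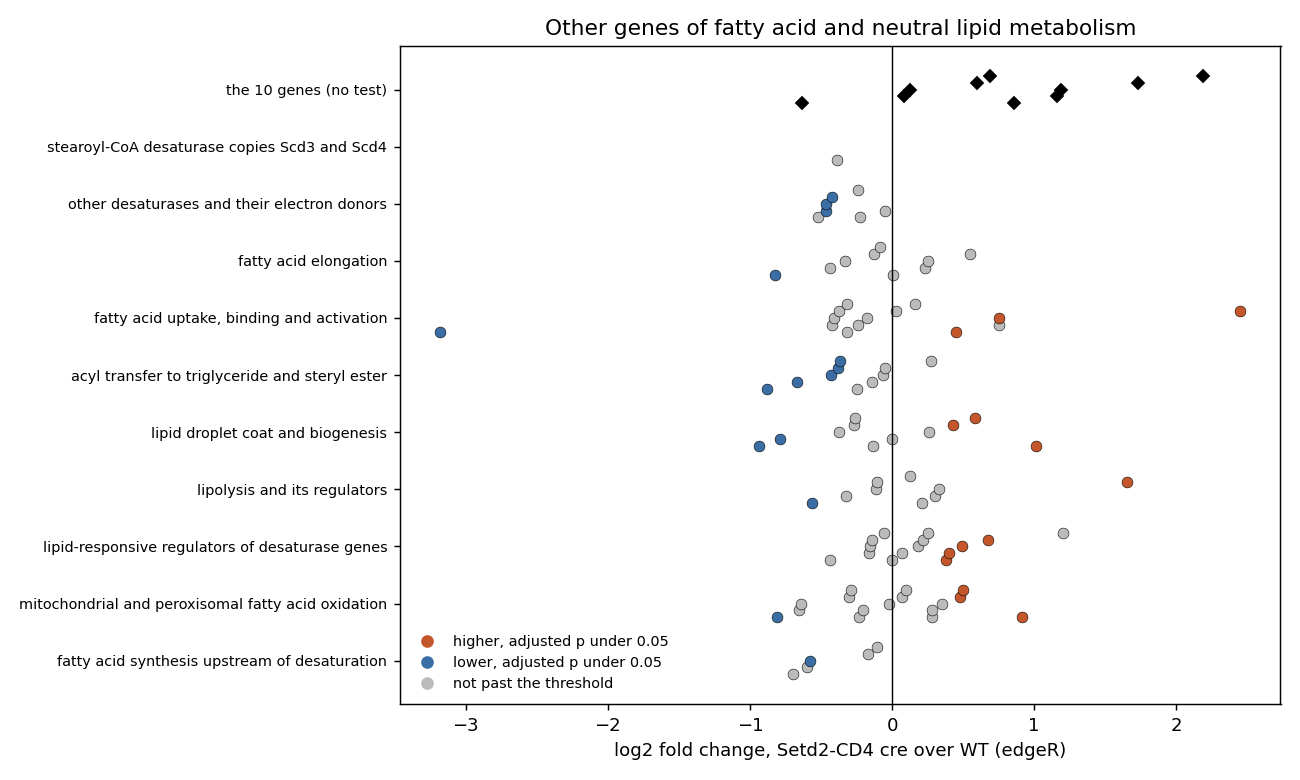
Log2 fold change, Setd2-CD4 cre over WT (horizontal axis), of every tested gene of the 10 pathway lists (circles) and of the 10 genes described above (black diamonds, no test), with orange for higher and blue for lower at an adjusted p under 0.05. Most list members lie within 1 unit of 0. The electron donor, elongation, acyl transfer and fatty acid synthesis lists each hold at least 1 blue point and no orange ones.

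Scd and Fads enzymes take electrons through cytochrome b5 and its reductases. Which of the genes below serve these enzymes in Th17 cells was not tested. Of 7 tested genes in the list of electron donors and other desaturases, 3 fell and none rose. These were Cyb5b (138 and 150 CPM in WT, 102 and 113 CPM in Setd2-CD4 cre, log2 fold change -0.42, SE 0.11, edgeR adjusted p = 0.0273), a cytochrome b5 gene, and the reductase genes Cyb5r4 (-0.47, 0.0294) and Cyb5r3 (-0.46, 0.0386). Cyb5a, also a cytochrome b5 gene, stood at -0.24 and did not pass (edgeR adjusted p = 0.244). The call of each of the 3 was lost once WT 13 or WT 15 was left out, at edgeR adjusted p of 0.115 to 0.320, while another gene of the list, Degs1, was called lower without WT 15. By DESeq2 only Cyb5b was called, with Cyb5r4 at an adjusted p of 0.0503 and Cyb5r3 at 0.0804, and without Setd2-CD4 cre 22 the list had 5 genes lower.

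Upstream of desaturation, 1 of 5 tested genes fell and none rose. Acly, which makes cytosolic acetyl-CoA, went from 230 and 265 CPM to 157 and 175 CPM (-0.58, SE 0.12, edgeR adjusted p = 0.0105, lost without WT 15 at 0.125). Fasn, the fatty acid synthase, stood at 276 and 287 CPM against 132 and 215 CPM (-0.70, SE 0.23, edgeR adjusted p = 0.0659). Mcat stood at -0.60 (0.0687) and Acaca at -0.10 (0.573). None of the 5 had a positive log2 fold change, and 3 were called lower under library totals. Of 9 tested elongation genes, 1 fell: Hsd17b12, a reductase of the elongation cycle, went from 51.4 and 54.7 CPM to 32.2 and 27.8 CPM (-0.82, SE 0.14, edgeR adjusted p = 0.00497). Hacd3, Tecr and Elovl1 stood at 0.23, 0.25 and -0.33 (edgeR adjusted p = 0.114 to 0.229).

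Of 10 tested genes of acyl transfer to triglyceride and steryl ester, 5 fell and none rose. Agpat3 (-0.38, edgeR adjusted p = 0.0338) and Agpat1 (-0.43, 0.0420) encode enzymes that acylate lysophosphatidate. Gpam (-0.88, SE 0.27, 0.0408) encodes the mitochondrial enzyme of the first acylation, at 8.53 and 11.2 CPM in WT and 4.57 and 6.14 CPM in Setd2-CD4 cre, and Soat2 (-0.67, 0.0415) makes cholesteryl ester. None of the 5 was called without WT 13 or without WT 15, and 1 was called by DESeq2. Lpin2, another lipin gene, stood at 30.1 and 25.2 CPM against 27.0 and 39.7 CPM (0.27, SE 0.21, edgeR adjusted p = 0.341).

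Of 11 tested lipid droplet genes, 3 rose and 2 fell. Hilpda, whose protein inhibits Pnpla2, went from 14.9 and 13.01 CPM to 29.9 and 26.5 CPM (1.01, SE 0.16, edgeR adjusted p = 0.00431), and the coat gene Plin3 from 69.2 and 63.2 CPM to 102 and 96.6 CPM (0.58, SE 0.11, 0.00898). Aup1 rose as well (0.43, edgeR adjusted p = 0.0302). Faf2, an adaptor gene of droplets and the endoplasmic reticulum, fell from 75.9 and 81.2 CPM to 46.03 and 45.1 CPM (-0.79, SE 0.12, edgeR adjusted p = 0.00331). Hilpda and Faf2 kept their calls in all 10 alternatives, while Plin3 lost its call without WT 13 (0.0550) and without WT 15 (0.123), and Aup1 lost its call in 5. Fitm2, a droplet budding gene, fell (-0.94, edgeR adjusted p = 0.0308) and lost its call in 3, among them DESeq2 (0.0597). The coat and fusion genes Plin1, Plin4, Plin5, Cideb and Cidec had no count in any library.

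Of 9 tested lipolysis genes, 1 rose and 1 fell. Mgll, the monoacylglycerol lipase of the last step, rested on 28 and 27 WT counts against 46 and 95 counts for Setd2-CD4 cre (1.65, SE 0.39, edgeR adjusted p = 0.0170). Lipe, the hormone-sensitive lipase, went from 39.9 and 45.3 CPM to 25.7 and 31.9 CPM (-0.56, SE 0.16, edgeR adjusted p = 0.0308). Both calls were lost without WT 13 and without WT 15, and that of Mgll also by limma (0.0656). Abhd5, the coactivator of Pnpla2, stood at 10.2 and 13.7 CPM against 14.9 and 15.2 CPM (0.33, SE 0.21, edgeR adjusted p = 0.246), and Abhd12 at -0.32 (0.118).

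Of 15 tested regulators, 4 rose and none fell. Nr1h2, which encodes the liver X receptor beta, went from 73.9 and 67.5 CPM to 116 and 109 CPM (0.67, SE 0.11, edgeR adjusted p = 0.0051, lost without WT 15 at 0.0745). Insig1, the sterol-sensing anchor of SREBP processing, went from 118 and 110.1 CPM to 156 and 164 CPM (0.49, SE 0.11, 0.0124), and lost its call in 3 of 10 alternatives. Srebf1, the SREBP gene of fatty acid synthesis (0.38, 0.0391), and Rxrb, the partner receptor gene (0.40, 0.0411), lost their calls in 5 of 10 alternatives each, among them library totals (0.175 and 0.153). Pparg rested on 14 and 2 WT counts against 13 and 17 counts for Setd2-CD4 cre and did not pass (edgeR adjusted p = 0.249).

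Of 14 tested genes of uptake, binding and activation, 3 rose and 1 fell. Acsl3, an acyl-CoA synthetase of droplets, went from 52.7 and 54.0 CPM to 94.7 and 84.9 CPM (0.75, SE 0.12, edgeR adjusted p = 0.00388) and kept its call in all 10 alternatives. Acsbg1, another synthetase, rose (0.45, 0.0190). Cd36, a fatty acid receptor gene, rested on 2 and 8 counts against 25 and 20 (0.0238), and Lpl, the lipoprotein lipase gene, on 19 and 28 counts against 0 and 4 (0.0261). Acsbg1 and Lpl were no longer called once WT 13 or WT 15 was left out, and Cd36 without WT 13 (0.177). Acsbg1 was not called either under library totals (0.0679) or by limma on log2(FPKM + 1) (0.0686), nor Cd36 by limma (0.0647). Of 16 oxidation genes, 3 rose and 1 fell. Hadhb went from 24.8 and 21.1 CPM to 38.3 and 48.3 CPM (0.91, SE 0.17, edgeR adjusted p = 0.00702), Acadl (0.50, 0.0116) and Acadm (0.48, 0.0272) rose, and Cpt2 fell (-0.81, 0.0222). Of these 4 only Hadhb kept its call without WT 13 (0.0199), and none did without WT 15, where another gene of the list, Cpt1b, was called lower. Acadm also lost its call under upper-quartile factors (0.0585), library totals (0.0804) and limma (0.0975).

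The deposited pathway names placed Scd1, Scd2, Fads1 and Fads2 together in biosynthesis of unsaturated fatty acids. Of 18 other tested genes there, none rose and 3 fell, with a median log2 fold change of -0.11. PPAR signaling held Scd1, Scd2, Fads2 and Plin2, and of its 40 other tested genes 8 rose and 6 fell (median -0.06). Glycerolipid metabolism held Dgat1, Dgat2, Lpin1 and Pnpla2, and of its 39 other tested genes 5 rose and 8 fell (median -0.11). Among all tested genes 16.2% were higher and 14.5% lower, so nothing is read as particular to these pathways.

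The 5 genes whose log2 CPM over the 4 libraries, centred on its mean, lay nearest to that of Scd1 were Col20a1, Gpr160, Fkbp9, Klrc2 and Timd2, at root mean square distances of 0.09 to 0.12, among 10659 genes with a mean of at least 5 CPM in 1 genotype. The nearness rests on 4 libraries. A pseudocount of 0.001 CPM was added before the logarithm.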

How the data were processed

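RNA of 4 Th17 libraries was compared, 2 of each genotype. The authors deposited 1 table of gene counts and FPKM values. Per the submitters' processing notes, Bowtie2, RSEM, GRCm38.p6 and mm10 were used, with roles and versions not given. The counts were whole numbers, which may be rounded estimates. Genes were tested on the counts with edgeR 4.0.16 (R 4.3.3) after filterByExpr and TMM scaling, by the quasi-likelihood test with Benjamini-Hochberg adjustment over 12927 genes at 0.05. The standard error is the size of the log2 fold change over the square root of F. DESeq2 1.42.0 and limma 3.58.1 on log2(FPKM + 1) were alternatives. The steps were tested on simulated data. The sources do not say whether libraries came from separate animals, so a p-value here reflects how far these libraries scatter, which could be technical variation alone. An exact permutation test of 2 against 2 cannot go below 0.333. Members and lists were chosen with earlier results of these data known. List genes named are the 4 of smallest p per list, and others named were chosen after their values were seen. A count of 0 allows up to 3 counts, for counting error only.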

Additional observations from a re-analysis of the deposited data

How the results depend on the processing

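None of the 10 genes changed direction past the threshold in the 10 alternatives run. Library totals, upper-quartile factors and limma on log2(FPKM + 1) moved the median of all tested genes to -0.16, -0.12 and -0.12. Under library totals 2879 genes were lower, list genes were 9 higher and 24 lower, and log2 fold changes were -0.024 for Scd2, 0.45 for Fads2, 1.58 for Dgat1, 1.01 for Lpin1 and 0.54 for Pnpla2. With limma 1267 genes were higher, list genes were 6 higher and 23 lower, and the values were 1.94 for Scd1, -0.026 for Scd2, 0.42 for Fads2, 0.25 for Fads3, 1.55 for Dgat1, 0.96 for Lpin1, 0.63 for Plin2 and 0.49 for Pnpla2. DESeq2 called 9 list genes lower. Leaving out 1 library gave 718 to 3068 genes higher and 564 to 2903 lower, and 3 to 21 list genes higher and 3 to 24 lower. The log2 fold changes then ran from 2.002 to 2.39 for Scd1, 0.07 to 0.19 for Scd2, -0.77 to -0.49 for Fads1, 0.52 to 0.69 for Fads2, 0.48 to 1.68 for Fads3, 1.64 to 1.82 for Dgat1, 0.04 to 0.11 for Dgat2, 1.03 to 1.30 for Lpin1, 0.68 to 1.03 for Plin2 and 0.63 to 0.76 for Pnpla2. The lone library left in a genotype is assumed to vary like the other genotype, and the cause of these shifts was not tested. No paired analysis was possible because the genotypes share no replicate number. At 9 to 24 counts per library, depth limits Fads3.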
